A study of Mus musculus with 6 samples.

Results

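The clustered histone genes are the genes that encode the bulk histones of dividing cells, and they sit in dense groups in the genome. Members were all rows of the expression table whose gene name starts with Hist1h, Hist2h, Hist3h or Hist4h, which gave 71 of 34745 rows under 70 names, since Hist2h2bb is listed under 2 Ensembl identifiers (GENCODE M21 names ENSMUSG00000050936, 1 of them, Gm42743). The 71 were 6 genes for the linker histone H1, 20 for H2A, 20 for H2B, 12 for H3 and 13 for H4, with 56 in the Hist1 group, 11 in Hist2, 3 in Hist3 and 1 in Hist4. RNA came from lung mesenchymal stromal cells (LMSCs) grown in culture from MMTV-PyMT mice, which carry the polyoma middle T oncogene under a viral promoter active in the mammary gland and form mammary tumors that spread to the lung. A-LMSCs came from mice at the adenoma stage (6 to 7 weeks of age by the labels), PM-LMSCs from the pre-metastatic stage (9 to 10 weeks) and M-LMSCs from the metastatic stage (13 to 14 weeks). Each stage had 2 libraries, numbered 1 and 2, made from total RNA of cells at passage 3, and all 3 groups carry the same transgene, so no tumor-free group was compared. The cells were adherent, CD45-depleted lung cells. The study counts its RNA-seq replicates as mice, more per stage than the libraries analysed here, and the labels do not name the mouse behind a library. The p-values measure the spread between these libraries.

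Nucleosomes are built from H2A, H2B, H3 and H4, and H1 binds the linker DNA between them. Clustered histone genes mostly have no intron, are transcribed mainly in S phase, and give messages that end in a short stem-loop in place of a poly(A) tail. The stem-loop is bound by the stem-loop binding protein Slbp, and cutting after it needs the U7 small nuclear particle. Some clustered genes are also known to give longer, polyadenylated messages in cells that have left the cycle, and most variant histones outside the clusters give polyadenylated messages. How strongly a library holds messages without a tail therefore bears on every level below, and the labels name total RNA without saying how messages were selected from it.

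The stem-loop letters are shown because they define the message end of this gene family. They were searched as 16 bases that start with GG, end with CC and form paired arms of 6 bases, the first arm ending in T, around a loop of 4, on the sense strand of the GENCODE M21 transcripts (GRCm38, the build also called mm10). They were found in 44 of the 69 members that have a transcript there, against 703 of 55450 genes in all (1.27%). By type, 12 of 13 H4 genes, 9 of 12 H3 genes, 4 of 6 H1 genes, 11 of 20 H2A genes and 8 of 18 H2B genes held them, and no match says only that these letters are not in the annotated transcript. Capitals mark the stem-loop in the lines that follow, with 5 bases on either side.
Hist1h1c (chr13:23739507-23739532, plus strand): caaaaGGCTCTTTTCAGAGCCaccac
Hist1h2ab (chr13:23751567-23751592, plus strand): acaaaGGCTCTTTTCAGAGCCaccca
Hist1h3b (chr13:23752815-23752840, plus strand): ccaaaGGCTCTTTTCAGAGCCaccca
Hist1h3g (chr13:23535884-23535909, plus strand): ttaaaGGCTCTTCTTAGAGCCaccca
Hist2h3c2 (chr3:96238480-96238505, minus strand): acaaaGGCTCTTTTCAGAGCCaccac
Hist3h2a (chr11:58955167-58955192, plus strand): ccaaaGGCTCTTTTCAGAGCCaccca
Hist1h4i (chr13:22040961-22040986, minus strand): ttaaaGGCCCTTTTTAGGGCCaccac
Hist1h4n (chr13:21831793-21831818, minus strand): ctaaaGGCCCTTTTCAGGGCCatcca
The first line's 16 letters were shared by 24 members, all of type H1, H2A, H2B or H3, and 6 more members had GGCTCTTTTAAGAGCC. H4 genes had their own stem, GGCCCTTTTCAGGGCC in 7 of them, and Hist1h3g differed in its loop. The distance from stem-loop to annotated transcript end ranged widely. Hist1h4m and Hist1h4n ended 3 and 31 bases after it and Hist1h3b 51 bases after it, whereas Hist2h3c2 went on for 377 bases, Hist1h1c for 840 and Hist3h2a for 1643. Hist1h1c and Hist3h2a are shown once more because they also held AATAAA, the signal for a poly(A) tail, in the last 46 bases, marked here in capitals.
Hist1h1c (chr13:23740332-23740357, plus strand): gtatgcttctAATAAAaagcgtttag
Hist3h2a (chr11:58956787-58956812, plus strand): gtatatgcccAATAAAataagagtac

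Promoters, from 250 bases before to 50 after the start, were matched in the RefSeq table (GRCm38.p6) for 61 member names. The letters searched on both strands were CCAAT (bound by NF-Y), TATAAA (the TATA box), ATTTGCAT (the octamer bound by Pou2f1) and AAACACA (known from H1 genes), of which TATAAA and AAACACA can share letters. CCAAT was found in all 49 matched promoters of H1, H2A, H2B and H3 genes and in 3 of 12 H4 promoters, which is 85.2% of members against 37.9% of all 27025 promoters of the same length. TATAAA was found in 57.4% against 14.2%. The octamer was found in 7 of 17 H2A and 7 of 16 H2B promoters and in 0 of the 28 others, together 23.0% against 1.75%, and AAACACA in 5 of 6 H1 promoters, with 14.8% over all members against 7.14%. Some H2A and H2B windows overlap on opposite strands, such as those of Hist1h2ae and Hist1h2bg, and Hist1h2bq and Hist1h2br have the same sequence. The same letters can therefore count for both members in these shares. These matches are descriptions and not sites. An H1, an H2A and an H4 promoter of members described next are shown, with the searched letters of either strand in capitals.
Hist1h1c (chr13:23738557-23738856, plus strand): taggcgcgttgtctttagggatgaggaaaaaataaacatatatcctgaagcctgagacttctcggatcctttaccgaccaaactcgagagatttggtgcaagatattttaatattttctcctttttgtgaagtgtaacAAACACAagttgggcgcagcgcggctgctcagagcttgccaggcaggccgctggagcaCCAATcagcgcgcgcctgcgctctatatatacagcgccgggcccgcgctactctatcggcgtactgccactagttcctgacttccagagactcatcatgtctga
Hist1h2ab (chr13:23750838-23751137, plus strand): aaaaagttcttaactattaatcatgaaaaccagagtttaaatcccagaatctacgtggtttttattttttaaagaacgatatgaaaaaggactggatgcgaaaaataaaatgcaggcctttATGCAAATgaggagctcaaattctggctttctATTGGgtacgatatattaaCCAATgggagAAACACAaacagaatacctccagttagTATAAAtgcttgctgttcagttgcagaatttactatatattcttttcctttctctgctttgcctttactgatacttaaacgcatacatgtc
Hist1h4i (chr13:22041313-22041612, minus strand): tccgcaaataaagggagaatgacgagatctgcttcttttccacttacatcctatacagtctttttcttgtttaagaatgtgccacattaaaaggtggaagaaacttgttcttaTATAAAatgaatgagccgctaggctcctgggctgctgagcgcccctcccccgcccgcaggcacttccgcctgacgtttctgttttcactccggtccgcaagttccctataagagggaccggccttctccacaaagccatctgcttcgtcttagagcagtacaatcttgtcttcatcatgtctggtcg

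Values are FPKM, a fragment count divided by gene length and library total. The libraries held an estimated 14.8 to 20.8 mega-fragments, read from the spacing of low values, of which 96.3% to 96.8% fell within tolerance of a whole fragment. Of the cell type lists, all 10 mesenchymal genes were tested and summed to 1170 to 2160 FPKM, whereas the leukocyte marker Ptprc stayed under 0.1 FPKM and the endothelial marker Pecam1 under 0.04 FPKM in all 6 libraries. Other markers differed between the stages. The 8 haematopoietic markers summed to 117 and 125 FPKM in A-LMSCs, 69.2 and 158 in PM-LMSCs and 270 and 381 in M-LMSCs, mostly through Lyz2, with Cd3e at 0 in 4 libraries. The 6 epithelial markers summed to 3.46 to 6.65 FPKM in A-LMSCs, 10.3 to 18.2 in PM-LMSCs and 10.4 to 22.9 in M-LMSCs, through Krt8 and Krt18, with Epcam at 0 in 4 libraries. The 4 mesothelial markers summed to 41.7 to 64.2, 117 to 176 and 83.7 to 224 FPKM, in the same order of stages, and the 4 endothelial markers, 1 of them tested, to 1.47 to 1.52, 1.54 to 1.67 and 2.48 to 2.60 FPKM. Whether these other cells had a part in the stage differences of the histone genes was not tested. In bulk RNA, fewer cells making a message and less message per cell cannot be told apart.

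Most clustered histone genes were barely seen. The median of the members' means over the 6 libraries was 0.611 FPKM, against 6.45 FPKM over the 10279 genes tested, those whose mean reached 1 FPKM. Of the members 26 passed that filter (3 of H1, 8 of H2A, 4 of H2B, 6 of H3 and 5 of H4), 34 had a mean from 0.1 to under 1 FPKM, 9 had a lower mean above 0, and Hist2h3b and Hist2h3c1 were listed at 0 throughout. Hist2h2aa1 and Hist2h2aa2 passed only through A-LMSCs and Hist1h1e only through M-LMSCs, with a mean under 1 FPKM at each other stage, so a difference of those 3 from that stage could take only that direction. Hist1h4a passed through the later stages, with means of 0.975 FPKM in A-LMSCs, 1.22 in PM-LMSCs and 1.46 in M-LMSCs. Its higher values there than in A-LMSCs thus support no direction either. In all, 51 members had a value above 0 in every library. The 45 members under the filter rested on a median of 2 fragments per library, with at most 84 in any library, and their sum was 14.2 and 12.0 FPKM in A-LMSCs, 17.6 and 16.1 in PM-LMSCs and 18.9 and 17.4 in M-LMSCs. The later-stage sums thus all lay above both A-LMSC sums, although single genes at this depth could not be compared.

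Hist1h1c and Hist1h2bc stood far above the rest and together made up 60.7% of the summed FPKM of all members. Hist1h1c (ENSMUSG00000036181, a single-exon gene at chr13:23738808-23740367) encodes a linker histone. It read 73.1 and 91.5 FPKM in A-LMSCs, 87.5 and 114 in PM-LMSCs and 102 and 115 in M-LMSCs, from 2018 to 2987 fragments a library. Both M-LMSC libraries lay above both A-LMSC libraries, while A-LMSC replicate 2 lay above PM-LMSC replicate 1. No other annotated gene matched it at 95% identity over 200 bases. Hist1h2bc (ENSMUSG00000018102, chr13:23684199-23692908, with 2 exons) encodes an H2B, and its annotated transcript holds no stem-loop letters. At that identity 12 annotated genes matched Hist1h2bc, so its reads cannot be assigned to it alone. It read 75.5 and 73.4 FPKM in A-LMSCs, 108 and 89.5 in PM-LMSCs and 127 and 108 in M-LMSCs. All 4 later libraries lay above both A-LMSC libraries.

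**Figure D1:**
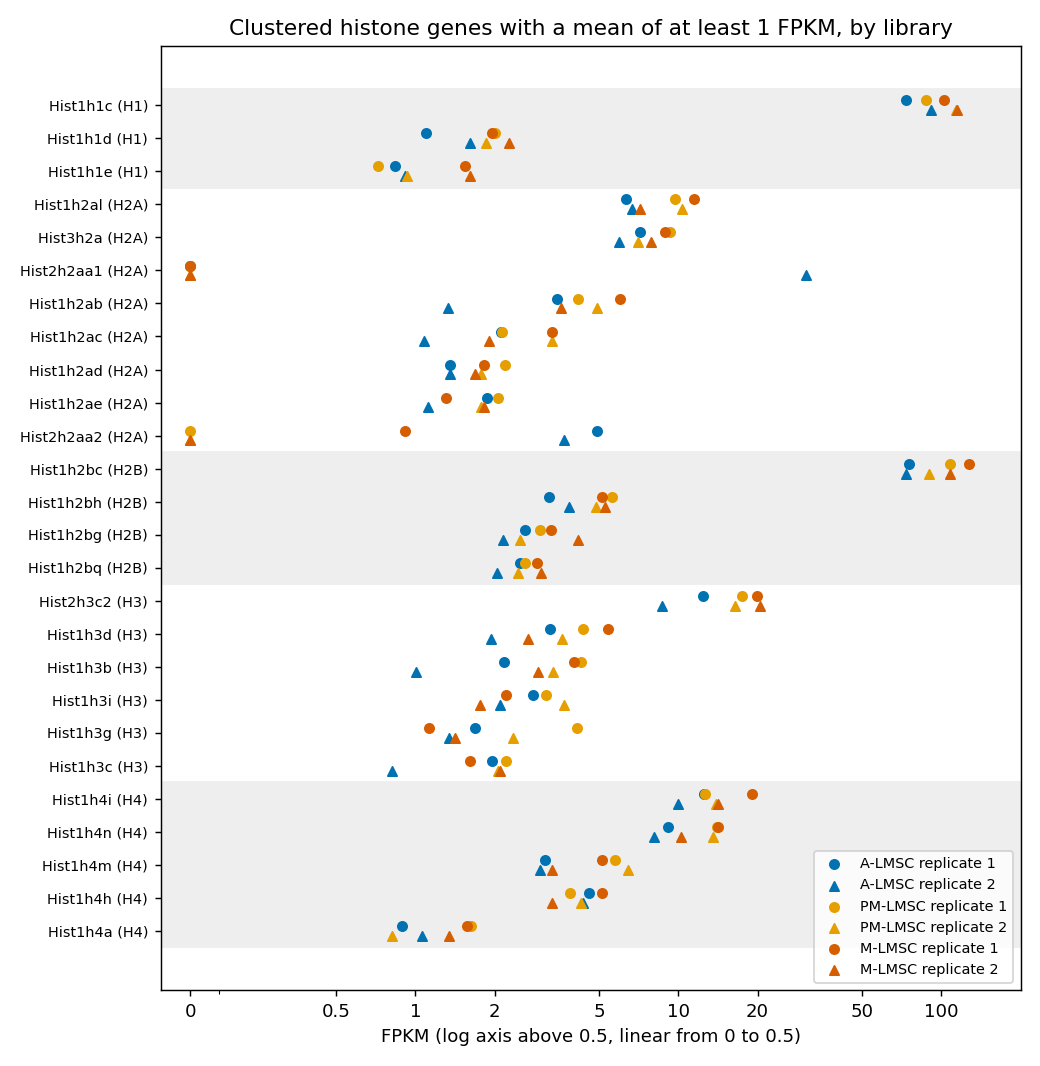
FPKM (log axis above 0.5, linear from 0 to 0.5) of the 26 histone genes whose mean reached 1 FPKM, grouped by type in grey and white bands, with circles for replicate 1, triangles for replicate 2 and color for the stage. Hist1h1c and Hist1h2bc sit between 73.1 and 127 FPKM, the others mostly between 1 and 20, and Hist2h2aa1 has 30.6 FPKM in A-LMSC replicate 2 and overlapping points at 0 in the other libraries.

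Below them came Hist2h3c2, an H3 gene, with a mean of 15.9 FPKM, the H4 genes Hist1h4i with 13.7 and Hist1h4n with 11.5, Hist1h2al with 8.61, and Hist3h2a, an H2A gene, with 7.70. Hist1h2al is annotated as a processed pseudogene (chr13:51202727-51203065), outside the dense group, with 99.4% identity to Hist2h2aa2 over its 339 bases. Median levels were similar with short and long annotated ends after the stem-loop. Among members with a stem-loop, 22 with 100 or more bases after it had a median mean of 0.980 FPKM and 22 with fewer had 0.902, and the 25 without the letters had 0.339. Several long-ended members gave whole fragments at a shorter length and not at the annotated one. Examples are Hist1h1d at 744 against 7425 bases and Hist1h2ac at 476 against 2482. The split thus follows the annotation and does not compare messages with long and short ends. The 11 members with AATAAA near the end ranged from 0 to 97.3 FPKM with a median of 0.0923, against 0.651 in the 58 without it. Of the other RNAs without a poly(A) tail on a fixed list, 8 of 13 had a row. Rmrp, Rpph1 and Rny3 were at 0 in all libraries and Malat1 alone was tested, with 1.66 to 12.1 FPKM.

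The first stage comparison asked how the histone genes differed once the lung was pre-metastatic. In PM-LMSCs most tested histone genes were higher than in A-LMSCs, by a modest amount that limma did not call gene by gene. Their median difference of log2(FPKM + 1) was 0.35, against 0.01 over all genes tested, and 22 of 26 (84.6%) had a positive difference, against 52.5% of all genes. limma called 0 of the 26 at an adjusted p under 0.05, where it called 4 of all 10279 genes (0.0292% higher and 0.00973% lower). At an unadjusted p under 0.05 there were 9 higher (34.6%, against 3.92% of all genes) and 1 lower (against 2.61%). In 16 of the 26 the PM-LMSC libraries were both higher than either A-LMSC library, a pattern of 19.6% of all genes, and in 2 both were lower, a pattern of 19.7%. Hist2h2aa2, which the filter admitted through A-LMSCs alone, was the 1 lower gene by unadjusted p and is among these 2. Hist1h4a, admitted through the later stages, is among the 22 and supports no direction there. Members share sequence and thus reads, so their count is not one of independent genes. On stage means without the filter, 50 of the 71 members were higher in PM-LMSCs and 18 lower, where 53.5% of all genes above 0 were higher. The median difference was 0.23 without A-LMSC replicate 2 and 0.10 over the 69 members with a value when low values were not filtered.

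H3 genes, which carry the best-known histone marks, had the largest median among the types, 0.57, with 6 of 6 positive. Hist1h3b read 2.17 and 1.01 FPKM in A-LMSCs, 4.26 and 3.35 in PM-LMSCs and 4.0 and 2.92 in M-LMSCs, from 11 to 41 fragments a library. Every later library was above both A-LMSC libraries, and the 2 A-LMSC libraries differed more than 2-fold between themselves. Hist1h3b had 13 near-identical copies, so its reads cannot be assigned to it alone. Its difference in PM-LMSCs was 0.92 ± 0.24 (SE) on the log2 scale, with limma's adjusted p = 0.469, and 0.59 without A-LMSC replicate 2. Hist2h3c2 (chr3:96238108-96239127) read 12.4 and 8.63 FPKM in A-LMSCs, 17.4 and 16.4 in PM-LMSCs and 19.9 and 20.5 in M-LMSCs, from 154 to 347 fragments. The stages did not overlap at all, and the PM-LMSC mean was 1.61 times and the M-LMSC mean 1.93 times that of A-LMSCs. The adjusted p of limma for PM-LMSCs was 0.449, with a log2 difference of 0.66, and of 0.42 without A-LMSC replicate 2. Its transcript has an identical stretch of 666 bases in the annotated locus Gm20634. That locus overlaps all 1825 annotated bases of Hist2h3c1, the member listed at 0 throughout. Hist2h3c2 had 6 near-identical copies, 4 of them members, so its reads cannot be assigned to it alone.

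H4 genes were positive in 4 of 5, with a median of 0.23, and among the 4 Hist1h4a had been admitted through the later stages. Hist1h4m and Hist1h4n are 99.8% identical over 402 bases, so few bases tell their reads apart and their sum is the better measure. Each had 7 near-identical copies in all, so the sum may also hold reads of other genes. The sum was 12.2 and 11.1 FPKM in A-LMSCs, 19.7 and 19.9 in PM-LMSCs and 19.2 and 13.5 in M-LMSCs, and was 1.70 times higher in PM-LMSCs by the means. Taken singly they had 0.80 ± 0.18 and 0.62 ± 0.16 (log2, SE) in PM-LMSCs, with adjusted p of 0.409 and 0.458. Hist1h4i read 12.5 and 9.98 FPKM in A-LMSCs, 12.6 and 13.9 in PM-LMSCs and 19.1 and 14.1 in M-LMSCs, so that in PM-LMSCs its lower library barely cleared the higher A-LMSC library. Hist1h4h was the exception of the type, with 4.56 and 4.35 FPKM in A-LMSCs and 3.86 and 4.26 in PM-LMSCs.

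H2A and H2B pair in the nucleosome, and their genes often share a promoter. All 4 tested H2B genes and 6 of 8 H2A genes had positive differences in PM-LMSCs, with medians of 0.27 and 0.30. Hist1h2ab read 3.45 and 1.33 FPKM in A-LMSCs, 4.15 and 4.92 in PM-LMSCs and 6.01 and 3.57 in M-LMSCs. All later libraries again lay above both A-LMSC libraries, but by little in M-LMSC replicate 2. Hist1h2bh read 3.21 and 3.83 FPKM in A-LMSCs and between 4.87 and 5.58 FPKM in the 4 later libraries, with a PM-LMSC difference of 0.46 ± 0.13 (SE, log2) and an adjusted p of 0.508. For Hist1h2bc the PM-LMSC difference was 0.40 ± 0.14, with an adjusted p of 0.649, and 0.26 without PM-LMSC replicate 1. Hist3h2a overlapped between A- and PM-LMSCs but not between A- and M-LMSCs, with 7.18 and 5.96 FPKM in A-LMSCs, 9.30 and 7.04 in PM-LMSCs and 8.90 and 7.84 in M-LMSCs, and shares 708 exonic bases with Trim17 on its own strand.

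**Figure D2:**
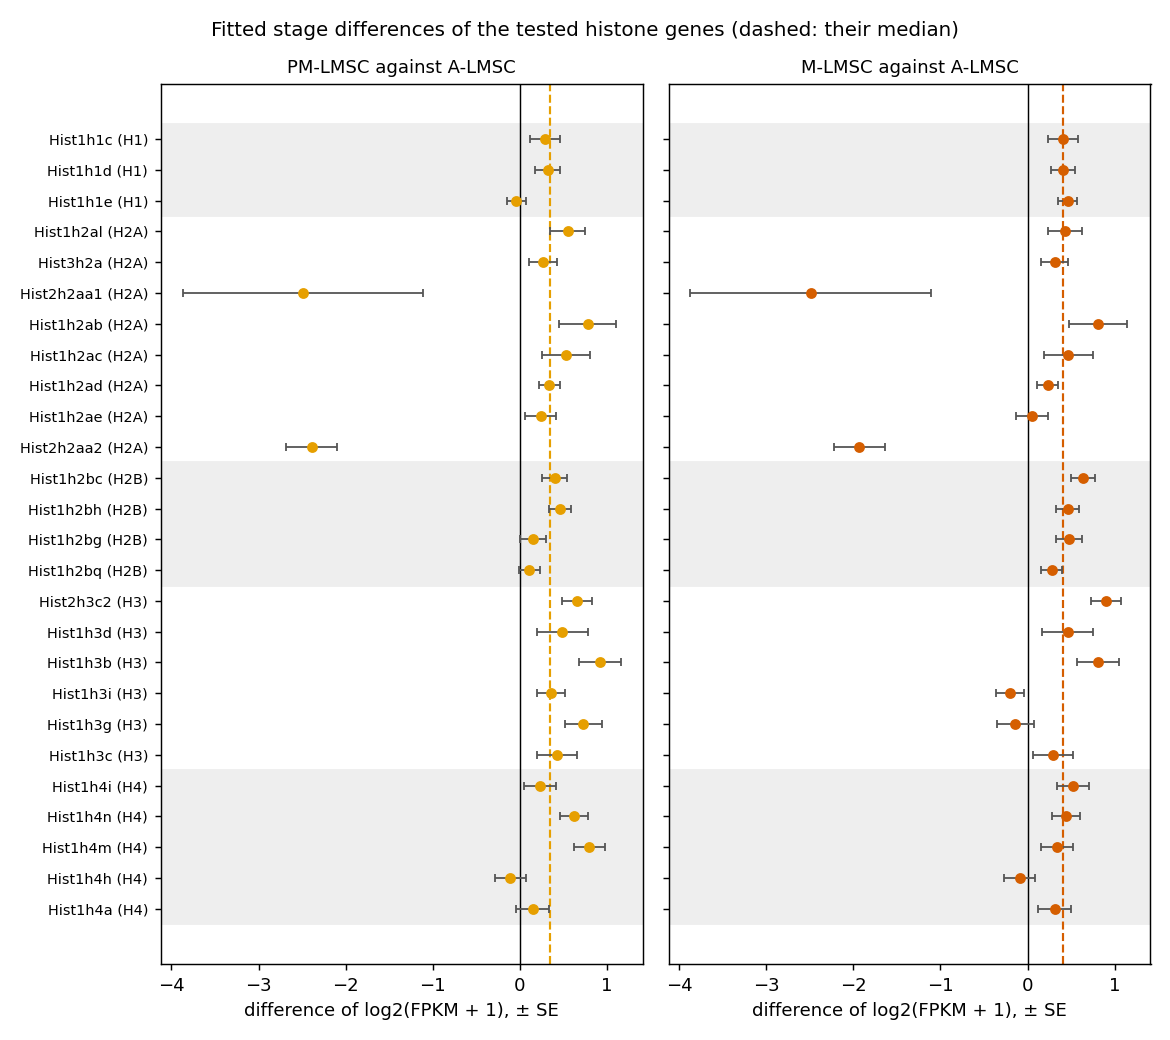
Differences of log2(FPKM + 1) from limma, with SE as horizontal bars, of the 26 tested histone genes in PM-LMSCs (left) and M-LMSCs (right), each against the same 2 A-LMSC libraries. Most points lie right of 0, around medians of 0.35 and 0.41 (dashed lines), whereas Hist2h2aa1 and Hist2h2aa2 lie left of -1.9 on both sides.

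Of the 4 members with a negative difference in PM-LMSCs, Hist1h4h and Hist1h1e were near 0, at -0.11 and -0.04, and the pair Hist2h2aa1 and Hist2h2aa2 lay far lower. These H2A genes lie on opposite strands of chromosome 3 (96245497-96246082 on the plus strand and 96239749-96240276 on the minus strand) and are identical over 528 bases. Hist2h2aa2 read 4.91 and 3.68 FPKM in A-LMSCs, 0 and 0 in PM-LMSCs and 0.916 and 0 in M-LMSCs, from 54, 34, 0, 0, 8 and 0 fragments. Its A-LMSC libraries stood apart from the later ones, all 4 later libraries being below both (10.7% of all genes had that pattern, from which nothing is read for a gene that the filter admitted through A-LMSCs). The adjusted p of limma was 0.135 at the pre-metastatic and 0.0875 at the metastatic stage, and 0.0185 and 0.0157 with the replicate number as a block. For the same reason these p-values support no direction. Hist2h2aa1 read 30.6 FPKM, or 314 fragments, in A-LMSC replicate 2 and 0 in the other 5 libraries, A-LMSC replicate 1 included. Since reads of identical genes have no single origin and the counting rule is not given in the sources used here, the pair was also summed with its near copy Hist1h2al. That sum was 11.3 and 40.9 FPKM in A-LMSCs, 9.67 and 10.3 in PM-LMSCs and 12.4 and 7.18 in M-LMSCs, so A-LMSC replicate 1 lay within the range of the later libraries and replicate 2 alone stood apart. The pair held the lowest differences of all 26 genes in both comparisons, so the medians given do not depend on their size, which rests on the pseudocount.

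The next comparison asked the same of the metastatic stage, against the same A-LMSC libraries. In M-LMSCs, too, most tested histone genes were higher than in A-LMSCs. The median difference was 0.41 on the log2(FPKM + 1) scale, against 0.03 over all genes, and was positive in 21 of 26 (80.8%), against 54.7% of all genes. limma called 0 of the 26, where it called 7 of all genes (0.0389% higher and 0.0292% lower). At an unadjusted p under 0.05 there were 10 higher (38.5%, against 7.68% of all genes) and 1 lower (against 6.96%). In 17 genes the M-LMSC libraries were both higher than either A-LMSC library, a pattern of 27.1% of all genes, and in 1 both were lower, a pattern of 24.4%. Hist1h1e, which the filter admitted through M-LMSCs alone, is among the 21, the 10 and the 17, and supports no direction there. Nor does Hist1h4a, admitted through the later stages, which is among the 21 and the 17. The lower gene of both counts was Hist2h2aa2, which the filter admitted through A-LMSCs alone. On stage means 54 of the 71 members were higher and 15 lower, where 57.1% of all genes above 0 were higher. The median difference was 0.24 without M-LMSC replicate 1 and 0.20 when low values were not filtered.

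With the replicate number as a block, limma called 3 members higher in M-LMSCs (11.5% of the 26, against 2.28% of all genes). It also called Hist2h2aa2 lower, as it did 1.64% of all genes, but the filter had admitted that gene through A-LMSCs alone. The 3 were Hist2h3c2, Hist1h3b and Hist1h2bc, at 0.90, 0.81 and 0.64 on the log2 scale, with block-adjusted p of 0.0250, 0.0250 and 0.0277. Without the block their adjusted p was 0.106, 0.223 and 0.127. The M-LMSC difference of Hist1h3b was 0.48 without A-LMSC replicate 2. Over the 26 genes the deviations of same-numbered libraries correlated at 0.0232 (A, PM), 0.195 (A, M) and -0.280 (PM, M). In PM-LMSCs the block called 0 members higher, where it called 0.263% of all genes, and of the members only Hist2h2aa2 lower, where it called 0.0292%.

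Over both later stages, 11 of the 26 (42.3%) had all 4 later libraries higher than either A-LMSC library, a pattern of 10.7% of all genes. They were Hist1h1d of H1, Hist1h2ab, Hist1h2ad and Hist1h2al of H2A, Hist1h2bc and Hist1h2bh of H2B, Hist1h3b and Hist2h3c2 of H3, and Hist1h4i, Hist1h4m and Hist1h4n of H4, so every type had at least 1. Hist1h1d (chr13:23553262-23560686) is a linker histone gene and, besides Hist1h1c, the only tested member with an annotated transcript and no near-identical copy. It read 1.10 and 1.61 FPKM in A-LMSCs, 2.00 and 1.86 in PM-LMSCs and 1.95 and 2.27 in M-LMSCs, from 17 to 28 fragments. It differed by 0.32 ± 0.14 (SE, log2) in PM-LMSCs and by 0.41 ± 0.14 in M-LMSCs, with limma's adjusted p at 0.788 and 0.279, and by 0.25 in M-LMSCs without A-LMSC replicate 1. Hist1h1c had 0.29 ± 0.17 and 0.41 ± 0.17, with adjusted p of 0.854 and 0.352. Over these 2 genes free of copies the medians were 0.31 and 0.41, close to those of all 26. Copies here include genes that overlap a member in place, such as Trim17, the only match of Hist3h2a.

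Between M-LMSCs and PM-LMSCs the histone genes had no common direction. Their median difference was 0.01, with 13 positive and 12 negative, and limma called 0, where it called 3 of all genes (0.0195% higher and 0.00973% lower). At an unadjusted p under 0.05 there were 1 higher and 3 lower members, against 4.48% and 4.46% of all genes, and the block also called 0. In 5 genes the M-LMSC libraries were both higher than either PM-LMSC library, as in 17.8% of all genes, and in 3 both were lower, as in 16.7%. The 1 higher was Hist1h1e, an H1 gene with 0.834 and 0.917 FPKM in A-LMSCs, 0.724 and 0.926 in PM-LMSCs and 1.54 and 1.61 in M-LMSCs, with a difference of 0.50 ± 0.11 (SE, log2) and an adjusted p of 0.304. It passed the filter only through M-LMSCs, so this count supports no direction, and it rested on 8 to 20 fragments. Its annotated exon overlaps Hist1h2be. The 3 lower were the H3 genes Hist1h3g and Hist1h3i and the H4 gene Hist1h4m. Hist1h3g read 1.69 and 1.34 FPKM in A-LMSCs, 4.12 and 2.36 in PM-LMSCs and 1.13 and 1.41 in M-LMSCs. Hist1h3i read 2.80 and 2.09, 3.13 and 3.68, and 2.21 and 1.76 FPKM in the same order, so both were highest in PM-LMSCs.

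Summed by type, each type but H2A was higher at both later stages by the stage means. H1 summed to 85.6 ± 13.8 FPKM in A-LMSCs (mean ± SD, n = 2), 106 ± 19.2 in PM-LMSCs and 115 ± 8.68 in M-LMSCs, nearly all of it Hist1h1c. H2B summed to 87.5 ± 2.25, 115 ± 15.3 and 136 ± 14.4 FPKM, mostly Hist1h2bc, and its 19 other genes to 13.0 ± 0.816, 16.6 ± 1.96 and 19.1 ± 0.741 FPKM. H3 summed to 21.7 ± 5.47, 35.9 ± 3.97 and 34.8 ± 1.47 FPKM, and H4 to 29.5 ± 2.64, 40.2 ± 0.420 and 40.5 ± 8.60 FPKM. For H2B, H3 and H4 every later library lay above both A-LMSC libraries, while for H1 A-LMSC replicate 2, at 95.3 FPKM, lay above PM-LMSC replicate 1, at 92.0. For H3 this rested on Hist2h3c2 at the metastatic stage. Without that gene H3 summed to 13.2 and 9.18 FPKM in A-LMSCs, 21.3 and 16.7 in PM-LMSCs and 15.9 and 13.2 in M-LMSCs. M-LMSC replicate 2 was then level with A-LMSC replicate 1. H2A summed to 43.9 ± 15.7, 33.7 ± 1.65 and 33.9 ± 6.53 FPKM, and without Hist2h2aa1 and Hist2h2aa2 to 24.3 ± 5.10, 33.7 ± 1.65 and 33.4 ± 5.88 FPKM, which turned its direction around. These sums carry no test.

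**Figure D3:**
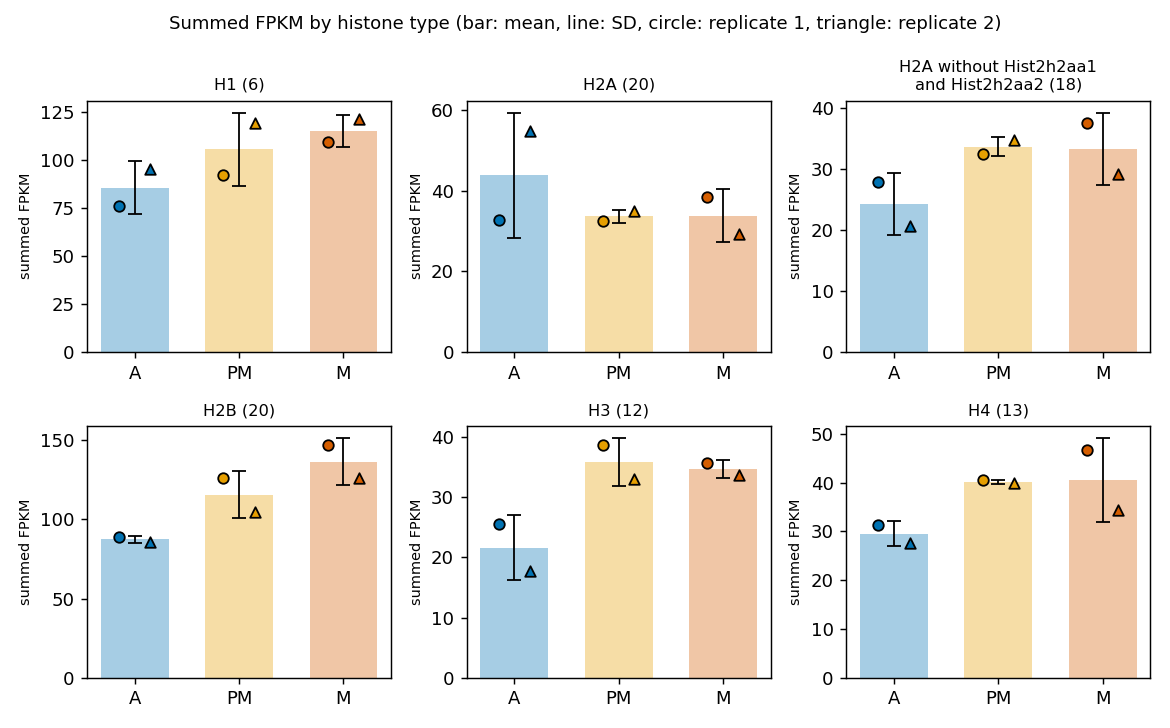
Summed FPKM of the histone genes of each type (number of genes in brackets) at the 3 stages, with bars for the mean of 2 libraries, lines for the SD, circles for replicate 1 and triangles for replicate 2; the vertical axes start at 0 and differ in range. H3 goes from 21.7 to 35.9 FPKM between A- and PM-LMSCs, and the H2A panels differ only by the pair Hist2h2aa1 and Hist2h2aa2.

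The replicate numbers were compared because messages mostly lacking poly(A) tails could differ between libraries of the same stage. By sign alone, histone genes tended to be lower in replicate 2, apart from H1. Over the 3 stages the median difference of replicate 2 from replicate 1 was -0.17 on the log2 scale, against -0.01 over all genes. In replicate 2, 21 of 26 were lower, against 5364 of all 10279 genes. limma, with stage as a factor, called 0 of the 26, where it called 5 of all genes (0.0292% higher and 0.0195% lower). At an unadjusted p under 0.05 there were 4 lower (15.4%, against 14.4% of all genes) and 1 higher (3.85%, against 8.17%). The lower share was thus close to that of all genes. A member lower in replicate 2 at all 3 stages was no more frequent than in the whole table, with 5 of 26 (19.2%) against 26%, and 2 were higher at all 3, against 21.2%.

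The types differed in sign. All 6 H3 genes and all 5 H4 genes were lower in replicate 2 over the stages, and all 3 H1 genes higher. Hist1h3d had -0.52 ± 0.12 (SE, log2; limma's adjusted p = 0.120), from 3.25 and 1.94, 4.35 and 3.60, and 5.40 and 2.69 FPKM in A-, PM- and M-LMSCs, so replicate 2 was the lower library each time. Hist1h3b had -0.43 ± 0.10 (adjusted p = 0.122) and Hist3h2a -0.25 ± 0.09 (adjusted p = 0.169), also lower each time. Hist1h1c had 0.29 ± 0.08 (adjusted p = 0.137) and was the higher library in replicate 2 at every stage. The sign of a type was not the same at each stage, however. H3 genes were lower in replicate 2 in 6 of 6 in A-LMSCs, 5 of 6 in PM-LMSCs and 3 of 6 in M-LMSCs, and H4 genes in 4, 2 and 5 of 5. Mesothelial markers were higher in replicate 2 in 4 of 4, with a median of 0.81, and their part in the difference between replicate numbers was not tested.

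**Figure D4:**
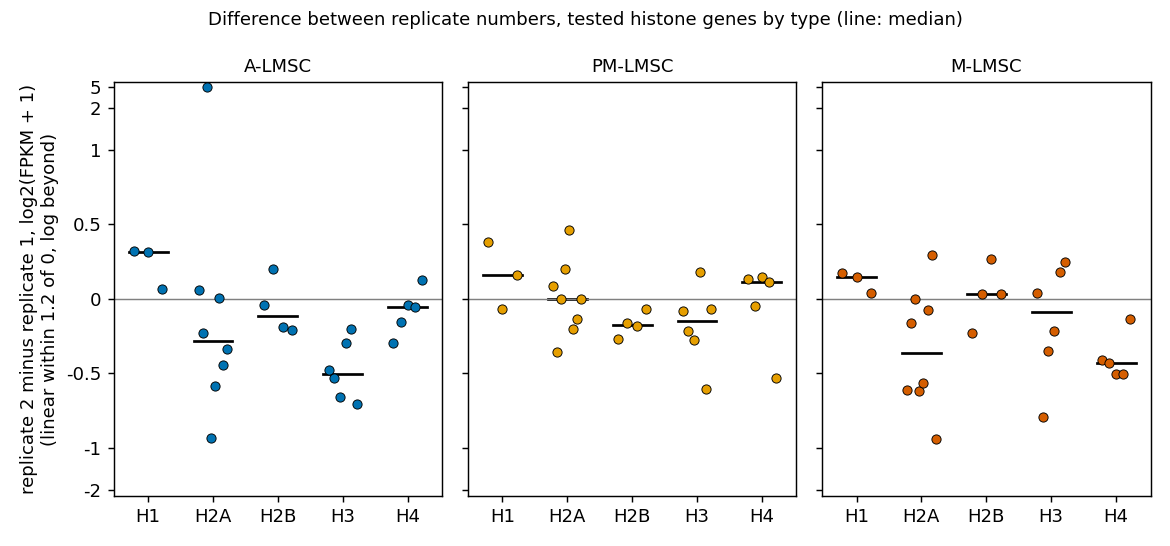
Replicate 2 minus replicate 1 in log2(FPKM + 1) for the 26 tested histone genes by type at each stage, with black lines for medians; the axis is linear within 1.2 of 0 and log beyond. H1 has medians of 0.31, 0.16 and 0.15, H3 of -0.50, -0.15 and -0.09, and the point near 5 in A-LMSCs is Hist2h2aa1.

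The genes that serve the histone supply were taken from fixed lists, and most lists differed in sign from the clustered histone genes. Of 17 tested S phase genes, the phase in which histones are made, 15 had negative differences in PM-LMSCs and 17 in M-LMSCs, with medians of -0.26 and -0.59. Mcm5, a subunit of the replicative helicase, read 25.8 and 32.6 FPKM in A-LMSCs, 20.8 and 25.4 in PM-LMSCs and 10.4 and 17.5 in M-LMSCs. limma called 0 of the 17 without the block, and 9 were lower in M-LMSCs with it, against 1.64% of all genes. Unadjusted, 13 of the 17 and 11 of 12 mitosis genes had a p under 0.05 in M-LMSCs, all of them lower, against 6.96% of all genes. All 12 mitosis genes were negative in both, with medians of -0.32 and -0.68, and limma called 0 of them without the block and 8 lower in M-LMSCs with it, against 1.64% of all genes. Cdc20, the mitotic activator of the anaphase-promoting complex, read 48.7 and 55.2 FPKM in A-LMSCs, 35.9 and 41.9 in PM-LMSCs and 21 and 31.3 in M-LMSCs.

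Chaperones that hand new histones to DNA mostly had the same sign as the S phase genes. Chaf1a, the large subunit of the CAF-1 complex, read 17.6 and 18.1 FPKM in A-LMSCs, 14.9 and 14.2 in PM-LMSCs and 9.39 and 9.91 in M-LMSCs, and its 3 stages did not overlap. Of 8 chaperone genes, 7 were negative in M-LMSCs with a median of -0.48, and Chaf1a, Chaf1b and Asf1b were called lower with the block, at a block-adjusted p of 0.0171 each, but 0 without it, where 4 had an unadjusted p under 0.05, all lower, against 6.96% of all genes. The variant histones outside the clusters were negative in 8 of 11 in M-LMSCs, with a median of -0.21, among them H2afx, with 67.7 and 69.9 FPKM in A-LMSCs and 40.9 and 47.3 in M-LMSCs, and Cenpa, the centromeric H3. These were the 2 called lower with the block, against 0 called without it and 4 lower at an unadjusted p under 0.05, beside the same 6.96%. Of the 16 genes for histone transcription and end processing, 13 were tested, none was called in any stage comparison with or without the block, and 0 had an unadjusted p under 0.05. Slbp stayed between 2.13 and 2.74 FPKM and Npat, the activator of histone transcription, between 1.52 and 2.93 FPKM.

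**Figure D5:**
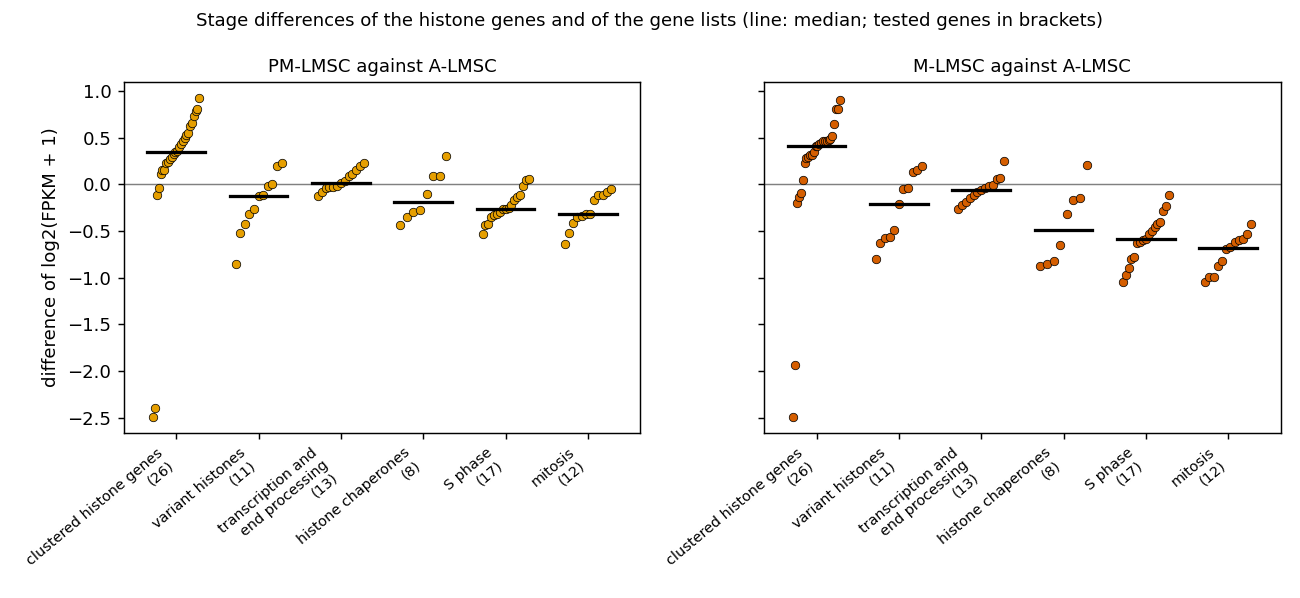
Differences of log2(FPKM + 1) in PM-LMSCs (left) and M-LMSCs (right) against A-LMSCs for the clustered histone genes and 5 gene lists, each point a tested gene and each line a median. The histone genes center on 0.35 and 0.41, whereas the S phase list centers on -0.26 and -0.59 and the mitosis list on -0.32 and -0.68.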

How the data were processed

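The authors deposited FPKM values per gene and library, made per the submitters' processing notes with mm10 and TopHat2 2.0.9; counter, annotation and strand are not given in the sources used here. Members and lists were chosen with earlier results of these data known, and every column of values in the table was used. Genes averaging 1 FPKM or more over the libraries (10279) were fitted as log2(FPKM + 1) with limma 3.58.1 in R 4.3.3 (lmFit, eBayes with a trend), with 1 mean per stage; p-values were Benjamini-Hochberg adjusted over all tested genes, with a threshold of 0.05. Named members were those that passed this filter, those called, and those with the largest same-sign replicate differences; others are named as examples of a count. Deviations of same-numbered libraries correlated at 0.238 (A, PM), 0.307 (A, M) and 0.491 (PM, M), so an alternative fit took the numbers to pair the libraries. The main fit did not pair them. Over the 26 tested members, however, the values were 0.0232, 0.195 and -0.280. Fragments were FPKM times length and estimated depth: 44 members gave whole numbers at the annotated length, 22 at another length, 2 were too abundant to check, 2 were at 0 and 1 was unresolved; no count model was run. Copies were searched with blastn 2.17.0 (at least 95% identity over 200 bases), and 59 of 69 members had one. Genes that overlap a member in place were counted among the copies. The fit was tested on simulated data. Alternatives were a pseudocount of 0.1, no filter, quantile normalization, centering on library medians, the replicate number as a block, the same with a correction for GC content and length, only the stages compared, members without a copy, and each library left out.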

Additional observations from a re-analysis of the deposited data

Results flagged for a closer look

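The H3 genes Hist1h3g and Hist1h3i drew attention because both PM-LMSC libraries lay above, and both M-LMSC libraries below, the A-LMSC mean. Their differences of M-LMSCs from PM-LMSCs were -0.87 and -0.56 on the log2 scale, with limma's adjusted p of 0.324 and 0.391, so neither passed the test. M-LMSC fragments were 8 and 10 for Hist1h3g and 15 and 12 for Hist1h3i.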

How the results depend on the processing

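Depth limits single genes: most members rest on few fragments, 59 of 69 share sequence with a copy, and each stage had 2 libraries. The 30 differences of single genes that were followed were those with an unadjusted limma p under 0.05 in the main fit. None of them changed direction under any alternative. This is weak support, because they were chosen by that p and the alternatives reuse the same libraries. The replicate block raised the calls over all genes to 30 (PM against A), 403 (M against A) and 43 (M against PM), and the calls among members from 0 to 1 in PM-LMSCs and 4 in M-LMSCs against A-LMSCs, and changed no other call of a member. With the block and a correction for GC content and length, the calls over all genes were 6, 321 and 7, and members had 4 calls in M-LMSCs and none in PM-LMSCs. With only the 2 stages compared, PM against A gave 21 genes and 1 member (Hist2h2aa2), and M against A gave 1 gene. With no filter on low values, the genes called were 1, 3 and, for the replicate numbers, 2, and the median of the 69 members with a value above 0 was 0.10 in PM-LMSCs, 0.20 in M-LMSCs and -0.06 between replicate numbers. A pseudocount of 0.1 gave a PM-LMSC median of 0.49. The replicate median was 0.21 over the 2 members without a copy and -0.24 with the correction for GC content and length. Leaving out each library in turn gave 1 to 28 genes for PM against A, 1 to 90 for M against A, 2 to 25 for M against PM and 3 to 160 between replicate numbers, with the highest counts when an M-LMSC library was left out, and a lone library was then assumed to vary like the others. Members called ranged from 0 to 1 for PM against A, M against A and the replicate numbers and stayed at 0 for M against PM. These calls were Hist2h2aa1 without A-LMSC replicate 1, Hist2h2aa2 without either M-LMSC library, and Hist2h2aa1 between replicate numbers without either M-LMSC library. The median ranged from 0.23 (without A-LMSC replicate 2) to 0.43 for PM against A, from 0.24 (without M-LMSC replicate 1) to 0.41 for M against A, from -0.04 to 0.13 for M against PM and from -0.21 to -0.12 between replicate numbers. The cause of these shifts was not tested.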
